A study of Mus musculus with 1479 samples.

Results

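Cluster 5 of the mouse urinary bladder was described here as a cell type. Its members were the cells whose label carried cluster number 5, which were 76 cells (5.14% of the series, with 1403 cells outside the cluster), and the study placed cells of this kind in the mucosa just beneath the urothelium, a position that dissociated cells do not show. The series consists of Smart-seq2 libraries, 1 per cell, from bladders of adult male mice aged 10 to 20 weeks, and the labels number 11 clusters that the authors had made from the same counts. Cluster 10 held the vascular mural cells, and the remaining 1278 cells were fibroblasts of the other clusters.

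Cells came from 5 mouse lines on 6 plates. PdgfrbGFP mice carry a transgene in which regulatory sequence of Pdgfrb drives GFP, PdgfraGFP mice carry a nuclear H2B-GFP placed in the Pdgfra gene itself, which interrupts the allele that carries it, Cspg4dsRED and Acta2GFP mice carry transgenes that mark cells using these genes, and C57BL6 mice carry no reporter and were sorted with antibodies. All mice were on a C57Bl6/J background, all bladders were dissociated with collagenase, with elastase added for the Acta2GFP mice, and CD31-positive cells, which are endothelial, were excluded in the sort. No label tells which mouse a cell came from, and some mice of the study carried several reporters, so the number of mice behind a line is unknown here. Line, sort and plate cannot be told apart for most cells.

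Fibroblasts directly under an epithelium differ from those deeper in the wall of hollow organs. They are known to send secreted signals to the epithelium, among them bone morphogenetic proteins (BMPs), which favour epithelial differentiation, and antagonists of Wnt proteins, which restrain epithelial renewal, and they in turn receive hedgehog proteins that the epithelium makes. In the bladder, the fibroblast-like cells beneath the urothelium have also been called interstitial cells or suburothelial myofibroblasts because many of them hold smooth muscle actin.

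Cluster 5 made up 14.97% of the PdgfraGFP cells on plate bladder_689s (22 cells, exact 95% interval 9.62% to 21.8%). The share was 9.16% (24 cells, 5.96% to 13.3%) for PdgfrbGFP on plate bladder_881s, 7.89% (15 cells, 4.49% to 12.7%) for C57BL6 on plate bladder_443s, 2.73% (5 cells, 0.893% to 6.26%) for PdgfrbGFP on plate bladder_515s and 1.92% (7 cells, 0.774% to 3.91%) for PdgfrbGFP on plate bladder_074s. None of the Acta2GFP cells belonged to it, where the exact interval reaches up to 2.82% (3 counts of the total would be 2.33%), although these shared plate bladder_515s with the PdgfrbGFP cells. The remaining 3 members were Cspg4dsRED cells, 2 on plate bladder_352s (1.13%) and 1 on plate bladder_689s (3.85%). The intervals cover counting error only, and a share here is one among sorted cells.

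The level of a gene was scaled in each cell to 500000 endogenous reads, and its mean was taken over the cells of a plate-and-line group, that is of 1 line on 1 plate. The 5 groups with at least 5 cluster 5 cells held 73 of the 76 members and 1026 other fibroblasts, and their values are always listed in the order PdgfrbGFP bladder_074s, C57BL6 bladder_443s, PdgfrbGFP bladder_515s, PdgfraGFP bladder_689s and PdgfrbGFP bladder_881s, with mean ± SD over the 5 groups. Cluster 5 cells had a median of 261652 reads (54380 to 758993) and 5245.5 detected genes (2042 to 9114). The summed endogenous reads of cluster 5 ran from 802899 on plate bladder_515s to 9159674 on plate bladder_881s, so that plate bladder_515s gave the least precise values. Since the cluster numbers were made from these counts, cluster 5 against other fibroblasts is described without a test. A gene was counted as higher or lower where the log2(level + 1) differed by at least 2 (4-fold) on average, with the same sign in 5 of 5 groups, and where 1 class reached a mean level of 5. By this rule 811 of 10563 genes differed (7.68%), of which 643 were lower (6.09%) and the others higher (1.59%), while 657 (6.22%) were higher and 1344 (12.7%) lower in every group regardless of size. The median gene lay at -0.30. The counts depend on how low values are treated, with 1.03% higher and 1.87% lower at a pseudocount of 5 in place of 1, and 87 genes higher and 1894 lower without the highest cell of each class in each group.

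All 6 markers given for these cells were higher by the rule, although Bmp7 was low on plate bladder_074s. The cluster was made from the same counts, so this is no independent support. Tnc encodes tenascin C, an adhesion-modulating matrix glycoprotein (ENSMUSG00000028364, GRCm38, chromosome 4, 63959785 to 64047015, minus strand). Its level in cluster 5 was 418, 486, 809, 1192 and 578 (696 ± 313.9), and in the other fibroblasts it was 1.34 ± 1.34, a log2 difference of 8.29 ± 0.88. Car3, a carbonic anhydrase of low enzymatic activity (chromosome 3, 14863512 to 14872523, plus strand), stood at 1238, 646, 1227, 1344 and 1009 against 5.31 ± 5.06, a log2 difference of 7.84 ± 1.32. Both genes were high in all groups and the lowest cluster 5 mean was far above the highest mean of the other fibroblasts.

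Dkk2 encodes a secreted Wnt antagonist (chromosome 3, 132085292 to 132180304, plus strand). It reached 326.7, 248.3, 619, 449 and 253.9 in cluster 5 against 4.68 ± 3.92, a log2 difference of 6.33 ± 1.22. Bmp5, a BMP ligand (chromosome 9, 75775364 to 75900310, plus strand), reached 261.6, 214.9, 315.9, 477 and 359.9 against 4.39 ± 2.22, a log2 difference of 6.01 ± 1.15. Cxcl14 encodes a chemokine (chromosome 13, 56288643 to 56296551, minus strand), which was at 836, 625, 912, 1259 and 846 against 81.2 ± 18.9, with the most even difference of the 6 markers (3.44 ± 0.14). Bmp7, the sixth marker and another BMP ligand (chromosome 2, 172868012 to 172940321, minus strand), was the uneven one, at 2.0, 63.7, 31.4, 90.04 and 132.7 against 1.29 ± 1.37, a log2 difference of 4.23 ± 2.17.

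**Figure D1:**
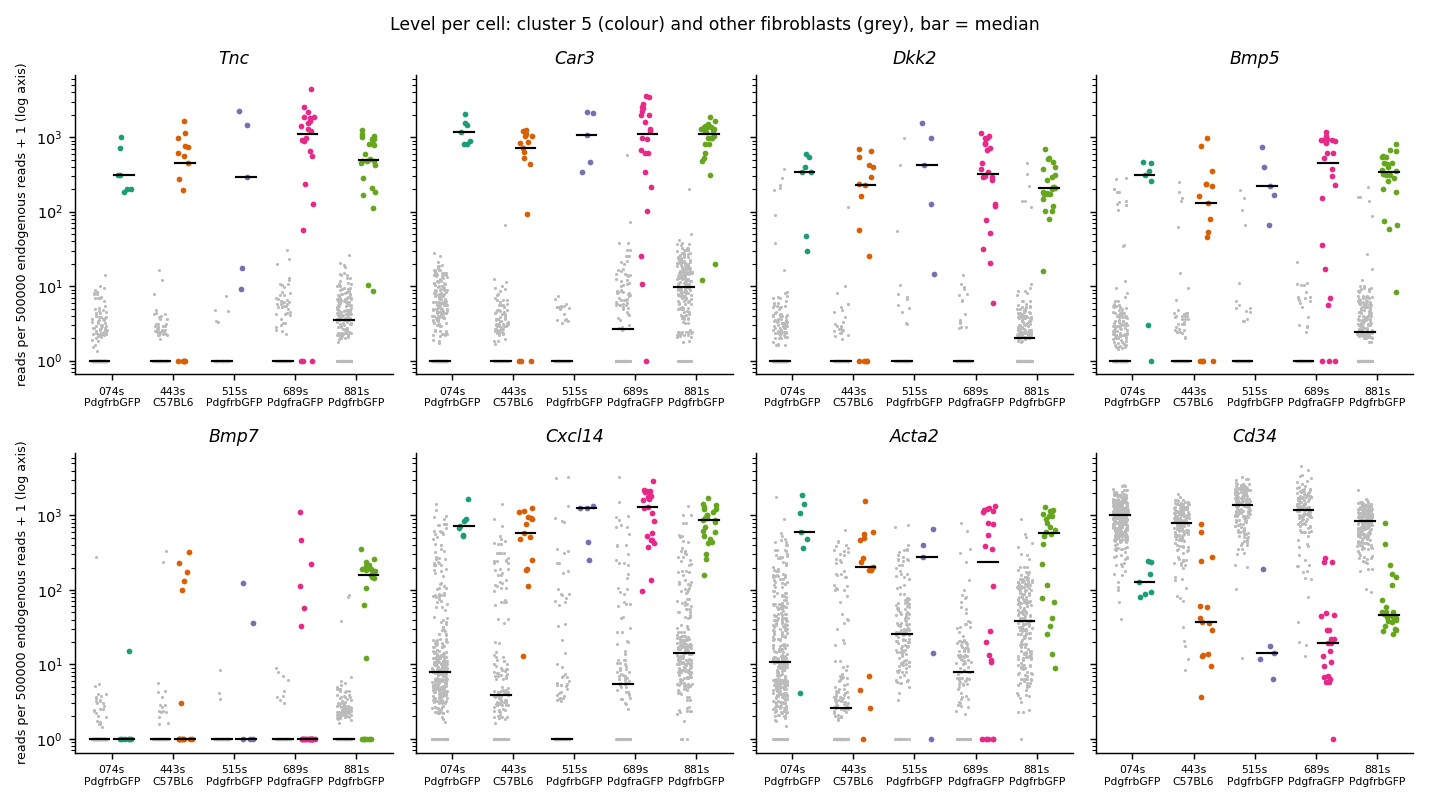
Level per cell (reads per 500000 endogenous reads + 1, log axis) of the 6 markers, Acta2 and Cd34 in 5 plate-and-line groups; coloured points are cluster 5 cells, grey points the other fibroblasts of the group, and bars are medians. Tnc and Car3 are high in most cluster 5 cells of each group, with some C57BL6 and PdgfraGFP members at 0, Bmp7 is read in most cells of plate bladder_881s only, Acta2 spreads from 0 to 1909 and Cd34 lies lower in most cluster 5 cells.

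Cell by cell, the markers were present in most but not all members. Each cell was thinned to 50000 endogenous reads, and at least 10 thinned reads were taken as a clear level. Tnc was clear in 62 of 76 cluster 5 cells (81.6%, exact 95% interval 71% to 89.5%) and in 0 of 1023 other fibroblasts, which allows up to 0.293%. Car3 was clear in 67 cells (88.2%), Dkk2 in 58 (76.3%), Bmp5 in 54 (71.1%) and Cxcl14 in 73 (96.1%), against 0.196%, 1.37%, 2.15% and 15.2% of the other fibroblasts. Bmp7 was clear in 26 cells (34.2%), of which 15 of 24 were on plate bladder_881s, 4 of 15 were C57BL6 cells, 4 of 22 were PdgfraGFP cells, 1 of 5 was on plate bladder_515s and 0 of 7 on plate bladder_074s. All 6 markers were clear in 14 cells, and at least 3 in 68 of 76 cluster 5 cells and in 4 of 1023 other fibroblasts.

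The 8 cluster 5 cells with fewer than 3 clear markers stood apart. They were 5 C57BL6 cells, 2 PdgfraGFP cells and 1 cell of plate bladder_881s, and 5 of the 8 had a clear level of Cd34, which marks the deeper fibroblasts. The 3 Cspg4dsRED members, which entered no mean, had Dkk2 levels of 579, 357 and 1306 and Tnc levels of 12.6, 183.7 and 296.8. Acta2 in these 3 cells was at 12.6, 10.4 and 796, and Rgs5, a pericyte marker, was at 0 in each.

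Over all plates and lines together, single marker reads outside cluster 5 were more frequent in cells that shared a plate row or column with the cluster. A Tnc read was found in 39.3% of 783 other fibroblasts that shared a plate row or column with a cluster 5 cell and in 1.01% of 495 that shared none. The same shares were 64% and 3.43% for Car3, 35.5% and 10.1% for Bmp5, and 29.6% and 5.45% for Dkk2. The libraries of a plate were marked by row and column indices and sequenced together, and the part that reads moving between wells played in these low levels was not tested. Against the other fibroblasts of these groups that shared no row or column, which left 4 groups and no PdgfraGFP cells, 857 genes passed the rule, 625 of them lower.

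General fibroblast genes were present throughout the cluster. Col1a1 and Col1a2, which encode the chains of collagen I, were at 7798 ± 2281 and 6391 ± 2135, above the other fibroblasts in every group by 1.10 ± 0.40 and 1.07 ± 0.33 on the log2 scale. Pdgfra was at 156.6, 102.8, 274.1, 271.5 and 245.7 against 309.3 ± 55.2 (log2 difference -0.63 ± 0.75), and Pdgfrb at 222.1, 152.8, 158.2, 256.5 and 145.4 against 224.1 ± 82.7 (-0.22 ± 0.80), so both PDGF receptors overlapped between the classes. Of 13 general fibroblast genes, 0 were higher and 2 were lower (Lum and Fbln2), against 1.59% and 6.09% of all genes. In every group 4 were higher and 5 lower, against 6.22% and 12.7% of all genes, with a list median of -0.63. The urothelial, immune, glial and cell cycle lists had only 5, 3, 1 and 4 members past the level filter, too few to read against the 7.68% of all genes that passed the rule, and none of these passed it. Without plate bladder_689s no urothelial gene passed the level filter. In the endothelial list 1 gene (Kdr) was lower. The summed level was 33.5 in cluster 5 and 26.9 in the other fibroblasts for 13 urothelial genes, with Trp63 at 0, and 24.1 against 10.9 for 10 immune genes, with Cd52 and Cd3e at 0.

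BMP ligands differed in both directions. Of 9 ligands and relatives past the level filter, 4 were higher and 3 lower, against 1.59% and 6.09% of all genes. Without the highest cell of each class in each group, 2 were higher. Bmp2 was at 72.6, 52.1, 20.5, 72.5 and 73.4 against 4.19 ± 2.20 (log2 difference 3.47 ± 0.96) and Bmp3, a divergent member that can oppose other BMPs, at 128.4, 130.9, 108.8, 152.3 and 110.9 against 11.8 ± 4.53 (3.37 ± 0.57), the former lowest on plate bladder_515s and the latter even over groups. Bmp4 was plentiful in both classes, at 642, 472, 327.6, 425 and 462 against 295.4 ± 32.02, and its difference of 0.63 ± 0.35, although above 0 in 5 of 5 groups, was below the rule. Per kilobase of exon, Bmp4 was the most abundant BMP ligand of cluster 5 at 207.2, followed by Bmp5 at 80.9, Bmp3 at 17.1, Bmp2 at 16.4 and Bmp7 at 15.9. The last 3 differed by less than their spread, as the SD was 2.39 for Bmp3, 6.45 for Bmp2 and 12.6 for Bmp7.

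The ligands that were lower belonged to the other fibroblasts. Gdf10, a TGF-β family ligand, was at 5.39 ± 3.83 against 202.8 ± 106.3 (log2 difference -5.10 ± 1.198) and was clear in 0 cluster 5 cells against 24.8% of the others. Bmp6 was at 1.72 ± 3.04 against 22.3 ± 11.8 (-3.45 ± 1.37) and Gdf6 differed by -2.64 ± 1.13. At the level of single cells, at least 1 of Bmp2, Bmp3, Bmp5 and Bmp7 was clear in 70 of 76 cluster 5 cells, at least 2 in 46 and all 4 in 3. Bmp2 and Bmp5 were both clear in 13 cells, and their rank correlation within groups was -0.16 over 73 cells.

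Extracellular BMP antagonists differed too. Sostdc1, which binds BMPs and Wnt co-receptors, was higher at 46.4 ± 37.7 against 1.68 ± 1.97 (log2 difference 4.04 ± 1.36), but was clear in only 14 cells. Twsg1, a BMP-binding protein that can also aid signalling, was at 328.04 ± 50.9 against 83.5 ± 24.1 (2.00 ± 0.60), just inside the rule. None of the 9 antagonists past the level filter was lower, and the classical antagonists Nog and Grem1 were at 0 in the cluster 5 cells of the 5 groups. Of 6 transcriptional targets of BMP signalling past the level filter, 0 were higher, against 1.59% of all genes, and 2 were lower, Id2 (-2.32 ± 1.80) and Msx1 (-3.49 ± 0.91), whereas Id3, a further target, differed by 0.09 ± 0.49, with both classes overlapping.

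Secreted Wnt antagonists were exchanged between the classes in the same manner. Of 7 genes past the level filter, 3 were higher (Dkk2, Notum and Sfrp2) and 2 lower (Sfrp1 and Sfrp4), against 1.59% and 6.09% of all genes. Notum encodes a carboxylesterase that removes the lipid Wnt proteins need, and was at 252.1, 196.3, 170.4, 206.4 and 135.2 against 1.66 ± 2.11, a log2 difference of 6.46 ± 1.24. Sfrp2, a secreted frizzled-related protein, was at 473, 378, 438, 184.3 and 280.9 against 56.97 ± 5.11 (2.53 ± 0.65). Its relative Sfrp1 went the other way, at 7.61 ± 5.05 against 113.5 ± 39.9 (-4.08 ± 1.60), and Sfrp4 was at 2.54 ± 3.80 against 30.6 ± 20.5 (-3.56 ± 0.72). Per kilobase of exon, Dkk3, which did not pass the rule (1.44 ± 0.31), was the most abundant secreted Wnt antagonist of cluster 5 at 328.8 ± 103.7. The 3 higher genes followed in the order Sfrp2 (162.9 ± 54.8), Dkk2 (102.4 ± 42.2) and Notum (79.8 ± 18.01), neighbours that overlapped within their spread.

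Some target genes of canonical Wnt signalling were higher, as were some of the antagonists. Of 9 targets past the level filter 5 were higher and 0 lower, against 1.59% and 6.09% of all genes, with a list median of 2.19. The higher members numbered 2 of 7 without the highest cell of each class in each group, and 3 of 9 with the line as the unit or a pseudocount of 5. Nkd1, a feedback inhibitor, was at 171.3, 186.8, 305.1, 169.6 and 111.8 against 14.2 ± 6.48 (3.72 ± 1.09) and was clear in 38 cells. Axin2, another feedback inhibitor, was at 54.6, 75.5, 66.2, 79.8 and 5.97 against 7.72 ± 8.34 (2.72 ± 1.64), so that on plate bladder_881s it was close to the 4.38 of the other fibroblasts, and it was clear in only 8 cells. Lgr5, the R-spondin receptor known from epithelial stem cells, was at 122.1 ± 59.3 against 26.9 ± 23.4 (2.49 ± 1.64), Lef1, a transcription factor, at 19.9 ± 14.2 against 1.28 ± 1.37 (2.81 ± 1.89), and Znrf3, a ligase that removes Wnt receptors, at 27.6 ± 11.3 against 5.84 ± 3.66 (2.19 ± 1.22). Cells clear for Dkk2 were not those clear for Axin2 in particular, since 6 cells were clear for both and the rank correlation was 0.01.

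Among Wnt ligands and R-spondins, 1 of 7 was higher and 2 were lower, against 1.59% and 6.09% of all genes. Wnt4 was at 87.5, 5.21, 7.41, 21.5 and 47.2 against 0.567 ± 0.297 (3.83 ± 1.39) and was clear in 9 cluster 5 cells. Wnt2b and Wnt9a, both present in the other fibroblasts at 25.5 ± 8.49 and 33.8 ± 14.2, were at 0.525 ± 0.501 and 2.50 ± 2.71 in cluster 5.

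**Figure D2:**
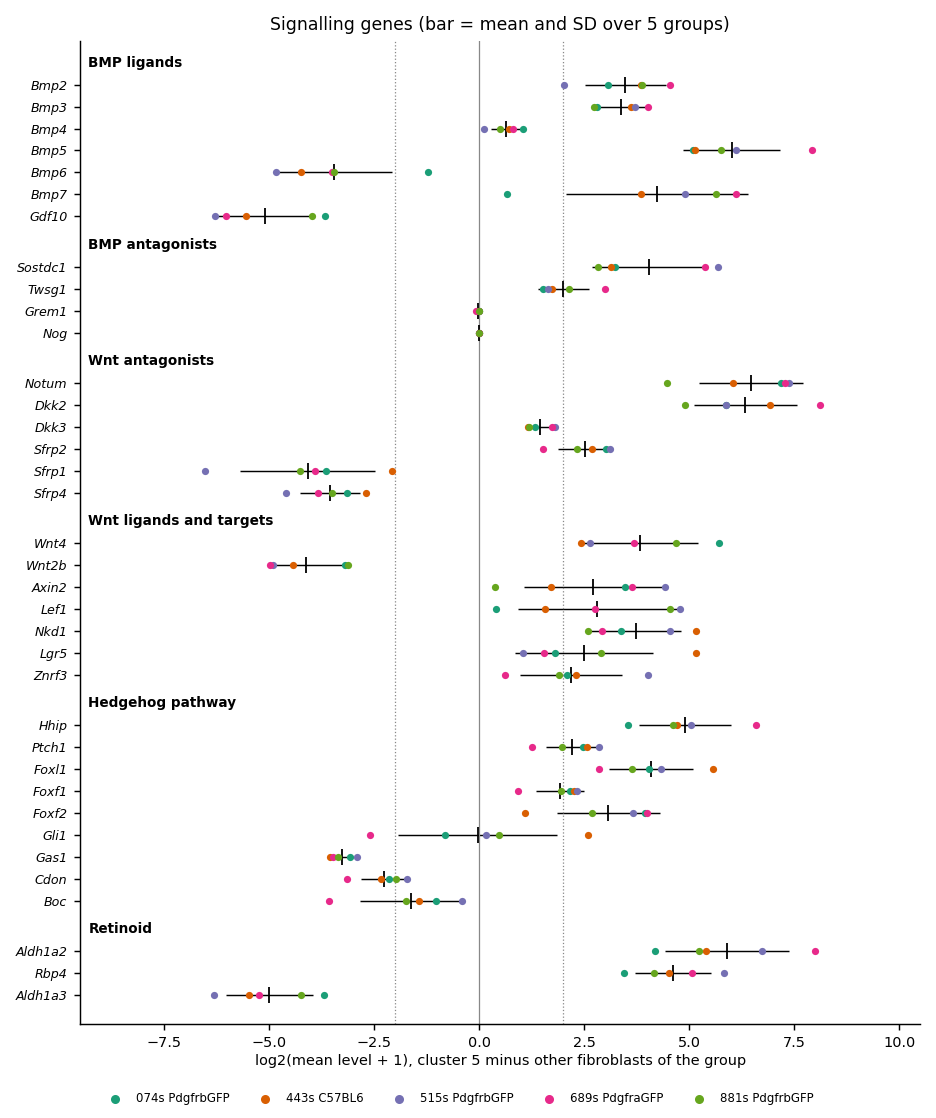
Difference in log2(mean level + 1) between cluster 5 and the other fibroblasts of the same plate-and-line group for signalling genes; 1 point per group, vertical tick and line are mean and SD over 5 groups, dotted lines mark a 4-fold difference. Bmp2, Bmp3, Bmp5, Notum, Dkk2, Hhip and Aldh1a2 lie to the right in every group, Gdf10, Sfrp1, Gas1 and Aldh1a3 to the left, Bmp4 lies above 0 but within the dotted line in every group, and Gli1 falls on both sides of 0.

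Hedgehog pathway members divided between the negative regulators and the co-receptors. Hhip, a surface protein that binds and sequesters hedgehog ligands and is itself a target of the pathway, was at 168.9, 305.2, 575, 427 and 409 against 12.03 ± 5.32 (4.90 ± 1.10) and was clear in 48 of 76 cells (63.2%). Ptch1, the receptor and likewise a target, was at 240.1, 297.2, 499.7, 294.998 and 284.1 against 71.2 ± 31.9 (2.22 ± 0.63). The forkhead factors Foxl1 and Foxf2, which act downstream of hedgehog signals in gut mesenchyme, were at 62.7 ± 27.8 against 2.55 ± 1.13 (4.08 ± 0.99) and 54.5 ± 27.2 against 5.60 ± 3.35 (3.07 ± 1.22), and Foxf1 was at 134.4 ± 64.7 against 32.1 ± 8.11 (1.92 ± 0.57), just outside the rule. Gas1 and Cdon, co-receptors for hedgehog, were lower, Gas1 at 38.4 ± 9.68 against 382 ± 104.4 (-3.28 ± 0.28) and Cdon by -2.27 ± 0.55. In total, 4 of 13 members were higher and 2 lower, against 1.59% and 6.09% of all genes. Gli1, the transcription factor most used as a readout of the pathway, did not separate the classes: it was at 16.5, 84.3, 58.5, 5.59 and 40.7 against 32.7 ± 14.4, with a mean difference of -0.04 ± 1.90 and both signs among the groups.

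Enzymes that make retinoic acid differed in both directions. Aldh1a2, which makes retinoic acid, was at 94.4, 201.3, 584, 453 and 347 against 4.32 ± 2.66 (5.91 ± 1.48) and was clear in 58 cluster 5 cells, whereas Aldh1a3, which catalyses the same step, was at 5.25 ± 4.49 against 173.6 ± 64.9 (-5.00 ± 1.04) and clear in 0. Aldh1a1, another enzyme for this step, did not pass the rule (0.58 ± 0.44). Rbp4, the retinol carrier, was at 220.3 ± 137.8 against 9.14 ± 7.09 (4.60 ± 0.90). Of all genes, 1.59% were higher and 6.09% lower by the rule. Of 9 retinoid genes past the level filter, 2 were higher and 1 lower. Of 12 prostaglandin genes, 1 was higher and 3 were lower, among them the receptors Ptgfr and Ptgir, whereas 2 were higher and 5 lower without plate bladder_515s and 6 were lower without the highest cell of each class. Ptgs1, the constitutive cyclooxygenase, was at 84.9, 87.9, 253.7, 115.1 and 126.4 against 6.43 ± 1.62 (4.09 ± 0.63), and Ptgs2, the inducible one, was at 1.79 ± 2.62 against 41.7 ± 15.01 (-4.25 ± 0.68).

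Some contractile genes lay between the levels of the other fibroblasts and of the mural cells. Acta2, smooth muscle α-actin (chromosome 19, 34241090 to 34255590, minus strand), was at 837, 332.4, 268.2, 468 and 563 in cluster 5 against 52.1 ± 15.1 (log2 difference 3.16 ± 0.78). It was clear in 50 of 76 cells (65.8%, 54.01% to 76.3%) and in 15.6% of the other fibroblasts, and single members ran from 0 to 1909 with a median of 379. Myl9, the regulatory light chain of smooth muscle myosin, was at 555, 381, 413, 429.7 and 497 against 35.95 ± 16.1 (3.76 ± 0.74) and was clear in 59 cells. Of 25 contractile genes past the level filter, 9 were higher and 1 lower by the rule, against 1.59% and 6.09% of all genes. In every group 15 were higher, against 6.22% of all genes, and the list median was 0.931.

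The other 7 higher contractile genes were weaker or less regular. Myh11, the heavy chain of smooth muscle myosin, was at 138.9, 21.6, 21.1, 48.1 and 62.6 against 2.73 ± 1.80 (3.80 ± 0.93) and was clear in 18 cells. Tagln and Actg2, an actin-binding protein and the enteric actin, were at 96.8 ± 51.3 against 11.8 ± 4.71 (2.85 ± 0.80) and 73.9 ± 43.98 against 10.9 ± 7.15 (2.51 ± 0.89), each clear in 21 cells. Mylk, Csrp1, Vcl and Actn1, which encode the myosin light chain kinase, a LIM protein of smooth muscle, vinculin and α-actinin, differed by 2.47 ± 0.76, 2.40 ± 0.85, 2.19 ± 0.59 and 2.31 ± 0.82. Without the highest cell of each class in each group, 6 genes of the list were higher by the rule, and with the line as the unit 5 were.

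Set beside the mural cells of cluster 10, cluster 5 reached only part of the contractile level. The cluster 10 mean was taken over cells of all lines and plates, most of them outside the 5 groups and none from PdgfraGFP mice. Over the 76 cells the mean was 8.95% of that of cluster 10 for Acta2, 14.5% for Myl9, 15.5% for Mylk, 22.9% for Actg2 and 30.8% for Csrp1. It was 4.83% for Tagln, 2.85% for Myh11 and 0.823% for Cnn1 (calponin, a late contractile marker). The intermediate filament gene Des was at 0.863 ± 0.877 in cluster 5, lower than the 19.8 ± 8.82 of the other fibroblasts (-3.44 ± 0.96) and 0.0751% of cluster 10. The mural markers Rgs5, Notch3 and Mcam were near 0 in cluster 5, at 0.516 ± 0.730, 0.632 ± 0.867 and 0.705 ± 0.271, that is 0.169%, 0.215% and 0.107% of cluster 10. They were near 0 in the other fibroblasts too, at 0.214, 0.0527 and 0.179 per kilobase of exon. Of 10 mural genes, 3 passed the level filter, with Myh11 higher and Abcc9 and Des lower by the rule. Pooled over plates, the mean Acta2 level of cluster 5 was 499 in the 39 cells that shared a row or column with a cluster 10 cell and 469 in the 37 that shared none, and Myh11 was at 45.5 and 59.2. A read of the gene was found in 97.4% and 83.8% of these cells for Acta2, 61.5% and 51.4% for Myh11, 38.5% and 21.6% for Des and 15.4% and 5.41% for Rgs5, and the part of reads moving between wells was not tested.

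Genes known from myofibroblasts of scarred tissue were found in both directions. Of 10 such genes past the level filter, 2 were higher and 4 lower, against 1.59% and 6.09% of all genes. Their median was -1.52, but it was 0.27 over the 7 genes at a mean level of at least 20 and -0.53 against other fibroblasts sharing no row or column. Postn, the matrix protein periostin, was at 21.98, 9.17, 0, 0 and 2.23 against 53.7 ± 20.9 (-3.78 ± 2.14), and Ccn2, a growth factor-binding matrix protein, at 219.4, 14.3, 20.0, 76.2 and 35.3 against 242.7 ± 63.2 (-2.38 ± 1.74). Cthrc1, a collagen-associated protein, was at 5.07 ± 7.99 and 4.59 ± 1.81, and Lrrc15 was at 0 in cluster 5. Runx1, a transcription factor, was the member besides Sfrp2 that was higher, at 44.2 ± 17.2 against 1.09 ± 1.27 (4.50 ± 0.84).

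**Figure D3:**
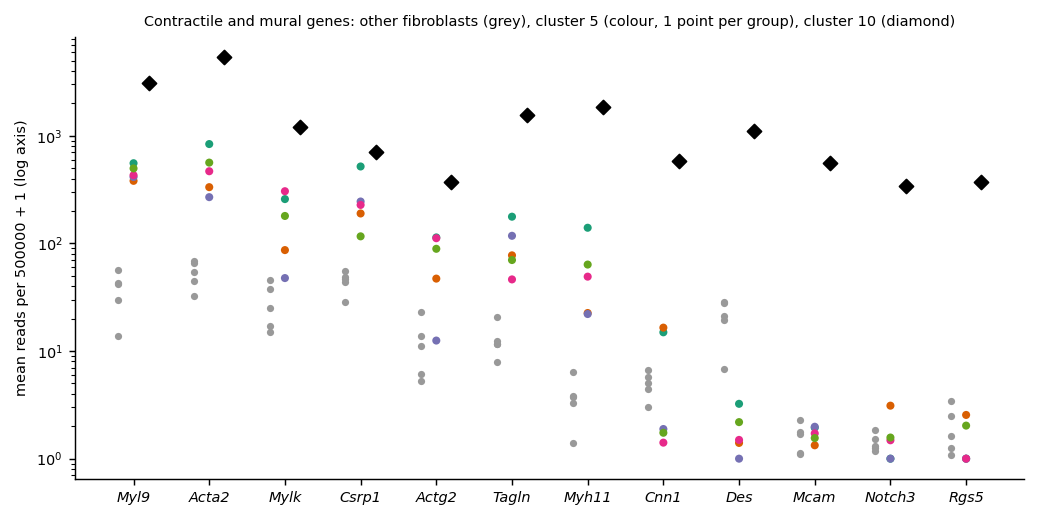
Mean level (reads per 500000 endogenous reads + 1, log axis) of contractile and mural genes; grey and coloured points are the other fibroblasts and cluster 5 in the 5 plate-and-line groups, and diamonds are the mean of all mural cells of cluster 10. Myl9, Acta2, Mylk, Csrp1 and Actg2 of cluster 5 lie between fibroblasts and mural cells, while Des, Mcam, Notch3 and Rgs5 are near 0.

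Proximal promoters of the contractile genes are shown because many smooth muscle genes are bound by serum response factor through a CArG box. The RefSeq promoters of 22 of the 26 contractile genes could be matched by symbol, and the box was found on either strand (the motif is its own reverse complement) within 250 bases before the start in 3 of these 22 genes, Myl9, Vcl and Myl6. Among promoters, 3 of 26 for the list (11.5%) and 482 of all 32851 (1.47%) held it. Acta2 had no match in this window. The 2 stretches printed here, of 200 bases each and read 5′ to 3′ on the plus strand of GRCm38.p6, belong to Myl9 (chr2:156775214-156775413) and Vcl (chr14:20929148-20929347), with the box in capitals. A match is a description of the sequence and not a measured binding site.
Myl9: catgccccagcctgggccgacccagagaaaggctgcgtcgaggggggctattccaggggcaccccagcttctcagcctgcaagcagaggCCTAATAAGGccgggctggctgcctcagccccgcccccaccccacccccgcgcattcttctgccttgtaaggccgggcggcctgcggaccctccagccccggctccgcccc
Vcl: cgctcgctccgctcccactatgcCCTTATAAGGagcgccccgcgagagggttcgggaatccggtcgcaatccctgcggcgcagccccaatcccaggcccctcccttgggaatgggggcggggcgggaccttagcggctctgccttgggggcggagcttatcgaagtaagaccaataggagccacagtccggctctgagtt

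Some matrix genes differed between cluster 5 and the other fibroblasts. Col12a1, a collagen that decorates fibril surfaces (chromosome 9, 79598991 to 79718831, minus strand), was at 379, 435, 634, 1244 and 724 against 49.01 ± 12.7 (log2 difference 3.68 ± 0.58) and was clear in 65 cells. Col6a3, a chain of the microfibrillar collagen VI, was at 798, 948, 1096, 1600.2 and 902 against 144.9 ± 19.9 (2.84 ± 0.53), with PdgfraGFP above the rest. Col16a1, another fibril-associated collagen, was at 301.4 ± 103.9 against 68.7 ± 22.4 (2.13 ± 0.68) and Col11a1, a minor fibrillar chain, at 55.4 ± 44.4 against 1.12 ± 1.24 (4.47 ± 1.53). Of 9 fibrillar collagen genes, 1 was higher and 1 lower by the rule and 6 were higher in every group, with a median of 1.07. Of 10 other collagens past the level filter 3 were higher and 2 lower. Of 17 basement membrane genes 0 were higher and 2 lower, with a median of 0.09. The shares over all genes were 1.59% higher and 6.09% lower, with 6.22% higher in every group.

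Adhesive glycoproteins of the matrix differed in both directions. Spon1, which encodes the secreted adhesion protein F-spondin, was at 735, 791, 713, 1060.1 and 764 against 27.8 ± 15.2 (5.00 ± 1.03) and was clear in 68 cells. Fn1, fibronectin, was at 1138, 837, 1107, 1456 and 860.3 against 253.4 ± 75.1 (2.11 ± 0.50). Tgfbi, a TGF-β-induced adhesion protein, was at 933 ± 247.1 against 213.5 ± 67.7 (2.14 ± 0.14), and Ccn4, a Wnt-induced matricellular protein, at 66.2 ± 31.8 against 5.39 ± 4.98 (3.68 ± 1.22). Of 16 matricellular genes past the level filter, 4 were higher (Tnc, Fn1, Ccn4 and Spon1) and 4 lower (Tnxb, Postn, Ccn2 and Ccn5), with a median of -0.87. Of all genes, 1.59% were higher and 6.09% lower.

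Some integrin subunits were higher. Itga11, the α subunit of a collagen-binding integrin, was at 304.6, 433, 448, 874 and 367 against 26.9 ± 8.39 (4.08 ± 0.35) and was clear in 59 cells. Itga4 and Itga3, subunits of fibronectin- and laminin-binding integrins, were at 29.02 ± 26.4 against 0.622 ± 0.459 (3.91 ± 0.79) and 34.2 ± 16.04 against 2.28 ± 2.16 (3.56 ± 1.24), and Itgb8, a subunit of an integrin that activates latent TGF-β, at 19.5 ± 22.7 against 1.08 ± 1.21 (2.59 ± 1.25). These 4 were the higher members of 13 integrins and cadherins past the level filter, with 2 lower (Itga9 and Cdh13), and without the highest cell of each class 2 of 11 were higher. Adamts9, a proteoglycan-cleaving protease, was at 11.3, 17.9, 22.3, 141.7 and 59.6 against 1.04 ± 0.53 (4.11 ± 1.55), and was the only protease or inhibitor of 18 that was higher, while 5 were lower. For both lists the shares over all genes were 1.59% higher and 6.09% lower.

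Elastic fibre genes and small proteoglycans held members lower in cluster 5. Eln, elastin, was at 22.5, 11.0, 0, 1.79 and 35.9 against 261.2 ± 73.7 (-5.03 ± 2.23), Mfap5, a microfibril protein, at 28.9 ± 20.2 against 362 ± 64.7 (-3.85 ± 0.91) and Pcolce2, an enhancer of procollagen processing, at 6.54 ± 5.20 against 187.9 ± 48.02 (-4.91 ± 0.80). They were the 3 lower members of 16 elastic fibre and cross-linking genes, with 0 higher by the rule, against 6.09% and 1.59% of all genes. In every group 8 of the 16 were lower and 2 higher, against 12.7% and 6.22% of all genes. Of 10 small proteoglycans 2 were lower (Lum and Aspn) and 0 higher, and 4 were lower in every group, although Fmod (1.83 ± 1.02) and Prelp (0.73 ± 0.38) lay above 0 in every group. The lower members numbered 5 and 4 without plate bladder_074s, and 6 and 4 without the highest cell of each class. Lum, the proteoglycan lumican, was at 90.7, 21.1, 62.9, 86.1 and 112.1 against 1080.4 ± 238.98 (-4.0 ± 0.82). Col14a1 and Col15a1, collagens of fibril surfaces and of basement membrane zones, differed by -2.07 ± 0.51 and -3.65 ± 1.78.

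**Figure D4:**
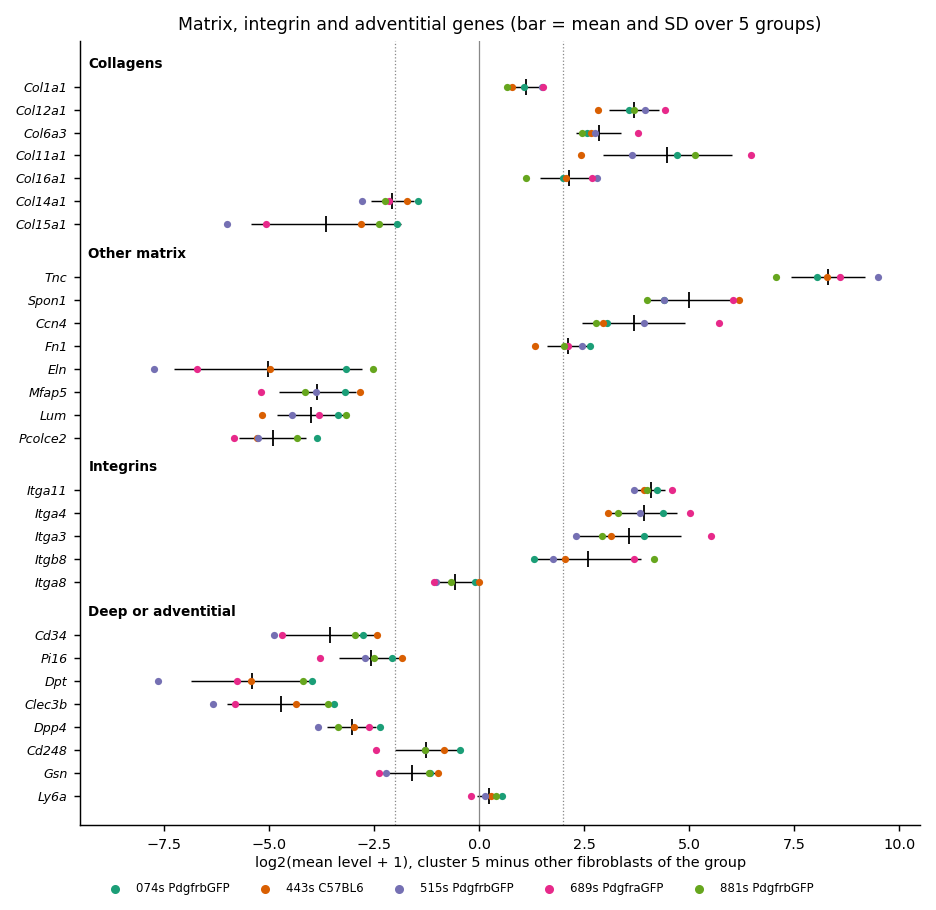
Difference in log2(mean level + 1) between cluster 5 and the other fibroblasts of the same plate-and-line group for matrix, integrin and deep or adventitial fibroblast genes; 1 point per group, vertical tick and line are mean and SD over 5 groups, dotted lines mark a 4-fold difference. Tnc, Spon1, Col12a1 and Itga11 are to the right in every group, and Eln, Lum, Dpt and Cd34 to the left.

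Most listed genes of the deeper, adventitial type of fibroblast were lower in cluster 5. By the rule 11 of 18 were lower and 0 higher (6.09% and 1.59% of all genes), with a median of -2.81, and 15 were lower in every group (12.7% of all genes). Ly6a, Ly6c1 and Sema3c were close in both classes, at 487, 78.5 and 23.1 per kilobase of exon against 417, 73.4 and 24.4. Cd34, a surface sialomucin (chromosome 1, 194938819 to 194961279, plus strand), was at 148.3, 145.4, 47.2, 49.4 and 108.2 in cluster 5 against 1079 ± 282.2 (log2 difference -3.55 ± 1.15). It was nevertheless clear in 20 of 76 cluster 5 cells (26.3%, 16.9% to 37.7%), against 98.2% of the others, and single members ran from 0 to 798. Pi16, a secreted protein of adventitial fibroblasts, was at 538, 649, 394, 171.3 and 267.3 against 2218 ± 409 (-2.58 ± 0.75) and was clear in 53 cells, so its level was reduced rather than absent. Dpt and Clec3b, which encode the matrix proteins dermatopontin and tetranectin, were at 9.74 ± 9.49 against 286.02 ± 73.1 (-5.40 ± 1.47) and 15.7 ± 14.7 against 295.1 ± 79.5 (-4.71 ± 1.30). Reads carried between wells of a plate would also give low counts of such abundant genes, and their part was not tested.

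Further lists are set beside the all-gene shares of 6.09% lower and 1.59% higher. Of 16 purinergic, channel and coupling genes past the level filter 6 were lower and 0 higher, among them Gucy1a1, a subunit of the nitric oxide receptor guanylate cyclase (9.59 ± 9.07 against 208.4 ± 34.4, -4.65 ± 1.11), Kcnn3, a small-conductance potassium channel (25.9 ± 9.97 against 232.5 ± 76.9, -3.13 ± 0.86) and Entpd2, an ATP-cleaving enzyme (221.5 ± 151.2 against 765 ± 61.7, -2.07 ± 1.03). Of 10 chemokines and cytokines, Cxcl14 was higher and 4 were lower, including Il33 (-4.93 ± 1.19) and Ccl11 (-4.25 ± 0.84), an alarmin and an eosinophil chemokine. Of 16 immediate-early and heat shock genes, 5 were lower and 0 higher by the rule, and 12 were lower in every group. These genes are known to respond to tissue dissociation, and their summed level was 2126 in cluster 5 and 6441 in the other fibroblasts.

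The growth factor and guidance lists had 3 or 4 members each past the rule, which 7.68% of all genes passed (6.09% lower and 1.59% higher). Of 8 FGF genes past the level filter, the receptor Fgfr2 was higher, at 35.4, 79.1, 15.5, 24.8 and 29.9 against 7.26 ± 2.73 (2.05 ± 1.09, near the edge of the rule), and 3 were lower, Fgfr3 and the ligands Fgf9 (-3.32 ± 1.06) and Fgf10 (-2.73 ± 1.01). Fgfr2 was not past the rule with TMM scaling, at a pseudocount of 5, or without plate bladder_074s or bladder_443s. Among 10 genes of the PDGF and IGF families, Pdgfc, a ligand of the PDGF receptors, was at 18.5, 37.3, 41.3, 65.7 and 68.01 against 3.90 ± 2.88 (3.38 ± 1.37), while Igf1 was at 22.03 ± 18.97 against 132.5 ± 46.2 (-2.99 ± 1.15). Slit3 and Slit2, secreted axon guidance proteins, were at 18.8 ± 12.5 against 429.6 ± 179.6 (-4.66 ± 1.24) and 1.01 ± 0.921 against 31.7 ± 8.62 (-4.11 ± 0.78), and they and 2 further members were the lower ones of 15 guidance and neurotrophic genes, none of which was higher. Of the TGF-β list, Tgfbi alone was higher, the latent binders Ltbp1 (-3.32 ± 1.54) and Ltbp2 (-3.99 ± 0.72) were lower, and the ligands Tgfb2 and Tgfb3 were at 21.1 ± 15.8 and 46.1 ± 28.6 against 38.2 ± 5.61 and 94.7 ± 15.8, below the rule's size. With TMM scaling or with the line as the unit, Tgfbi was not past the rule.

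Transcription factors gave 6 higher and 3 lower members of 26, against 1.59% and 6.09% of all genes. Besides Foxl1 and Foxf2, the T-box factors Tbx2 (30.9 ± 11.6 against 1.76 ± 1.75, 3.67 ± 0.93), Tbx3 (90.1 ± 42.5 against 20.6 ± 6.05, 2.02 ± 0.43) and Tbx20 (47.3 ± 29.01 against 6.67 ± 3.72, 2.56 ± 1.39) were higher, and so was the posterior homeobox factor Hoxa11, at 120.3, 83.1, 186.7, 88.6 and 113.02 against 20.9 ± 6.90 (2.45 ± 0.53). Prrx1, a homeobox factor of mesenchyme, was at 1.49 ± 0.892 against 31.3 ± 8.28 (-3.73 ± 0.47), and Hoxd11 differed by -2.33 ± 0.41. Foxl1 marks the sub-epithelial telocytes of the gut. Of 15 genes known from those cells, 6 were higher (Foxl1, Bmp2, Bmp3, Bmp5, Bmp7 and Cxcl14), a set that shares 4 members with the BMP ligands above and 3 with the markers given for the cluster, and 2 were lower. The higher ones numbered 4 of 14 without the highest cell of each class.

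Outside the lists, among genes that reached a mean level of 20, the largest higher difference was that of Slc14a1, a urea transporter, at 170.8, 322.4, 247.02, 381 and 224.2 against 2.37 ± 2.35 (6.62 ± 0.87), clear in 52 of 76 cells. Tspan13, a tetraspanin, was at 180.6 ± 67.5 against 2.13 ± 2.27 (6.06 ± 1.18), Moxd1, a monooxygenase-like protein, at 109.8 ± 49.97 against 0.804 ± 0.845 (5.96 ± 0.95) and Prss35, a serine protease family member, at 113.96 ± 53.8 against 0.987 ± 1.28 (5.93 ± 0.98). Avpr1a, a vasopressin receptor, was at 163.2, 224.4, 837, 201.9 and 261.4 against 12.99 ± 6.62 (4.44 ± 1.33), and Mc5r, a melanocortin receptor, at 22.3, 65.2, 1.31, 106.6 and 119.5 against 0.292 ± 0.395 (4.77 ± 2.16), highest in PdgfraGFP and on plate bladder_881s and close to 0 on plate bladder_515s. The largest lower differences were those of Dner, a transmembrane ligand of Notch (11.4 ± 8.87 against 444 ± 117.1, -5.38 ± 1.07), and C7, a complement component (4.74 ± 3.72 against 210.8 ± 108.1, -5.31 ± 1.09).

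Several of these genes overlap another gene: Bmp5 overlaps Gm26903, Tnc 8030451A03Rik, Notum Notumos, Ptch1 A930032L01Rik, and Foxl1 and Foxf1 Gm20388. The strand setting of the counting is not given in the sources used here, so reads of such pairs cannot be told apart.

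Inside the cluster, levels were compared between cells within each plate-and-line group, as rank correlations of thinned levels averaged over the groups. The correlations cover 73 cells, whose values share library, depth and plate, and are descriptions. The partners named for Acta2, Tnc, Cd34 and Bmp5 were the highest among 1563 genes clear in enough cells, so they were picked for their height. Acta2 was paired most closely with Myl9 (0.60, with 0.79, 0.63, 0.60, 0.36 and 0.74 in the 5 groups), then Dstn, an actin-depolymerizing protein (0.52), Car3 (0.50) and Hhip (0.47). Myh11, which was not among the 1563 genes, gave 0.48 with Acta2, but -0.29 in the group of 5 cells. Tnc went with other matrix genes, Thbs2 (thrombospondin 2, 0.56), Col12a1 (0.53), Svep1 (a large adhesion protein, 0.51), Col4a2 (0.47) and Fn1 (0.43), and with Ptch1 (0.45). Between Tnc and Acta2 themselves the correlation was 0.29. With the number of detected genes taken out, Acta2 with Myl9 stayed at 0.60 and Acta2 with Car3 at 0.50, while Tnc went to 0.53 with Thbs2, 0.51 with Col12a1, 0.46 with Svep1, 0.40 with Col4a2, 0.39 with Fn1 and 0.40 with Ptch1.

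The cluster thus held cells with differing shares of the matrix and contractile genes. Tnc and Acta2 were both clear in 45 of 76 cells, Tnc alone in 17, Acta2 alone in 5 and neither in 9. On average over the groups Cd34 ran opposite to both, with a correlation of -0.37 to Acta2 and -0.37 to Tnc, and went with C4b, a complement gene (0.56), with Pi16 (0.53) and with the mitochondrial ribosomal RNAs mt-Rnr1 (0.47) and mt-Rnr2 (0.42), whose part in these correlations was not tested. Acta2 was clear in 8 of the 20 cells with clear Cd34 (40%) and in 42 of the 56 without (75%). The sign was not the same everywhere: Cd34 with Pi16 gave -0.68, 0.56, 0.90, 0.74 and 0.57 in the 5 groups, and Acta2 with Cd34 gave -0.04, -0.78, 0.20, -0.42 and -0.27. Cd34 with Tnc gave 0.32, -0.62, -0.10, -0.41 and -0.43. The values of opposite sign came from the group of 7 cells for Pi16 and Tnc, and from the group of 5 cells for Acta2.

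The pairs of signalling genes given here reached lower values than the closest contractile and matrix pairs. Ptch1 correlated with Foxl1 at 0.38, with Bmp3 at 0.34 and with Bmp7 at 0.33. Bmp5 correlated with Slc14a1 at 0.42, with 0.18, 0.81, -0.30, 0.66 and 0.17 in the 5 groups, Dkk2 with Notum at 0.23, both of which were clear in 33 cells, and Hhip with Ptch1 at 0.32, both clear in 35 cells. The highest partner of Bmp5 was Gm26903 (0.82), which overlaps it.

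**Figure D5:**
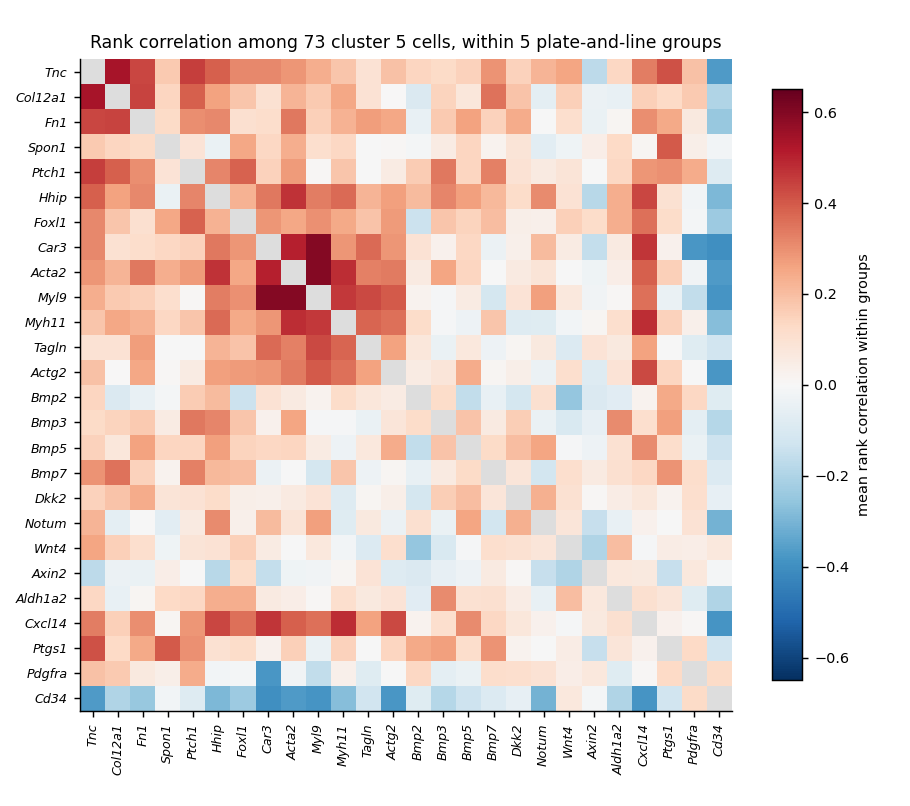
Mean rank correlation within plate-and-line groups between 26 genes over 73 cluster 5 cells; red is positive, blue negative, and the diagonal is grey. Blocks of matrix genes (Tnc, Col12a1, Fn1) and of Car3 with contractile genes (Acta2, Myl9, Myh11, Tagln, Actg2) stand out, BMP and Wnt genes are pale, and Cd34 is blue against most.

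The first principal component of 1563 genes, after centring on the groups, held 6.07% of the variance (the second held 3.98%). Myl9, Car3, Tgfb1i1, Csrp1, Acta2, Gm2a, Rbp4 and Tpm2 lay at one end and C4b, Ogt, Inmt, Col14a1, Sparcl1, Lama4, Cd34 and Fos at the other. It moved with the amount of RNA: its rank correlation was -0.71 with the number of genes detected after thinning and -0.71 with the ratio of endogenous to spike-in reads, so that cells at the contractile end had more genes and more RNA, and the part this played in the axis was not tested. Cluster 5 as a whole was also set against the other fibroblasts in RNA content. The median log2 ratio of endogenous to ERCC spike-in reads differed by -0.113 ± 0.179 over the groups, lower in 4 of 5 (exact two-sided sign-flip permutation test, p = 0.3125, where 5 groups have 32 sign patterns and the smallest p is 2 in 32, so that the test could not have passed a threshold of 0.05).

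Lines were compared on reads summed over the cluster 5 cells of each group, with 3 PdgfrbGFP plates and 1 group each for PdgfraGFP and C57BL6. Between PdgfraGFP and PdgfrbGFP, the edgeR quasi-likelihood test called 3 of 13768 genes (0.0218%) at a Benjamini-Hochberg adjusted p below 0.05 and at least 2-fold, all higher in PdgfraGFP, with 666 (4.84%) at an unadjusted p under 0.05. DESeq2 called 1.05% of the genes, of which only 12 were higher. On the log2 scale Gm26917 rose by 2.98 ± 0.56 (SE), the mitochondrial ribosomal RNA mt-Rnr2 by 1.79 ± 0.35 and Svep1 by 2.57 ± 0.52, with edgeR adjusted p of 0.00168, 0.00175 and 0.00324. Svep1 was the only one of the 3 that codes for a protein. The PdgfraGFP cells of cluster 5 had a median mitochondrial share of 2.86%, against 0.933% to 1.43% in the other 4 groups, and 2494.5 detected genes after thinning, against 3148 to 4614.5. The other fibroblasts of the PdgfraGFP group stood apart likewise, with 2.11% against 0.92% to 1.29% and 2371 genes against 3097.5 to 4509.5. The part of these measures in the calls was not tested. Since these calls rest on a lone PdgfraGFP group, whose spread is assumed to be that of the PdgfrbGFP plates, and since leaving out plate bladder_074s left 0 calls and leaving out plate bladder_515s left 31 (19 higher and 12 lower), they depend on single plates. The groups are plates of a line and not known animals, so these p-values measure the spread between plates, which may be technical.

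Between C57BL6 and PdgfrbGFP, edgeR called 0 of 13768 genes (0%), with 475 (3.45%) at an unadjusted p under 0.05, whereas DESeq2 called 1.68% of them. The estimates for single genes were imprecise, and a p above the threshold does not show that lines were alike. For Tnc the log2 fold change was 1.34 ± 0.49 (SE, edgeR adjusted p 0.769) in PdgfraGFP and -0.27 ± 0.53 in C57BL6, and for Acta2 it was 0.44 ± 0.57 and -0.30 ± 0.59 (edgeR adjusted p 1.0 for these 3). Bmp7, the most uneven marker, gave 1.01 ± 1.01 in PdgfraGFP and 0.61 ± 1.03 in C57BL6. Whether the difference from the other fibroblasts depended on the line was tested as an interaction, which called 0 of 13742 genes (0%), with 489 (3.56%) at an unadjusted p under 0.05 and 1.02% of the genes called by DESeq2, and leaving out a PdgfrbGFP plate gave 12 to 71 calls. Bmp5 had the smallest p of that test (0.000115, edgeR adjusted p 0.795), with a difference from the other fibroblasts that was largest in PdgfraGFP cells.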

How the data were processed

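Single bladder cells were sorted into 384-well plates and made into Smart-seq2 libraries. The authors trimmed adapters, mapped reads to GRCm38 with TopHat2 (Bowtie or Bowtie2), counted them per gene with featureCounts and removed low-quality cells and probable doublets. They deposited raw counts per gene and cell, in 46517 gene rows and 92 ERCC spike-in rows for 1479 cells, and no row was without a name. The annotation release and strand setting of the counting are not given in the sources used here. Gene symbols came from GENCODE M21 for 46005 identifiers, and 512 kept their identifiers.

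Reads per 500000 endogenous reads were computed for each cell, and cells were thinned to 50000 endogenous reads for shares and correlations (6 cells were too shallow, none of them in cluster 5). Smart-seq2 reads carry no molecular identifiers, so intervals cover counting error only. Lines were compared with edgeR 4.0.16 in R 4.3.3 (TMM, filterByExpr, quasi-likelihood test with Benjamini-Hochberg adjustment) on summed counts, with DESeq2 1.42.0 as an alternative. The edgeR step was tested on simulated data. Genes named were the markers, the genes the study names for these cells, up to 4 members per list and direction by size, up to 12 in each direction outside the lists, up to 8 calls per contrast and up to 8 partners or loadings, with negative members given where a group was described. The members and lists were chosen with earlier results of these data known. The result for 1 listed gene is not reported here.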

Additional observations from a re-analysis of the deposited data

Results flagged for a closer look

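Among the values looked at over the 5 plate-and-line groups, the highest or lowest group lay far from the others by Dixon's ratio in 6 (4.84%), and chance flags about 1 in 20. All are log2 differences between cluster 5 and the other fibroblasts. PdgfraGFP cells on plate bladder_689s were highest for Col6a3 (3.77, next 2.76) and Tbx2 (5.29, next 3.42) and lowest for Foxf1 (0.93, next 1.94). C57BL6 cells were lowest for Fgfr3 (-5.05, next -3.28) and highest for Kdr (-0.39, next -2.56). PdgfrbGFP cells on plate bladder_074s were highest for Hoxd11 (-1.59, next -2.48). Fgfr3, Kdr and Hoxd11 had mean levels below 1 in cluster 5.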

How the results depend on the processing

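Over 16 alternatives, the genes past the rule that the naming rule selected kept their sign in every one, and 81.6% to 100% of them stayed past the rule. These genes had been chosen for the same sign in 5 of 5 groups. Leaving out a group or changing the pseudocount or level filter could therefore not reverse a sign. Of 10563 genes, 7.68% passed it as reported (1.59% higher, 6.09% lower). A pseudocount of 5 gave 2.9% (1.03% and 1.87%). A mean level of at least 20 left 5691 genes, of which 7.68% passed (437 genes against 811) and 5.15% were lower. Leaving out the highest cell of each class gave 21.5% (0.942% and 20.5%, or 1981 genes), where a group of 5 to 24 cluster 5 cells loses a larger part of its cells than the other class. The median gene lay at -0.30 as reported, -0.44 with TMM scaling and -0.20 with median-of-ratios scaling. Other alternatives moved these counts of genes by less than 1.5 times. Calls between lines rested on few groups. PdgfraGFP against PdgfrbGFP went from 0.0218% of the genes tested (3 genes) to 1.05% with DESeq2, to 0% with the Cspg4dsRED sums added and to 0% to 0.223% without a PdgfrbGFP plate in turn. C57BL6 against PdgfrbGFP went from 0% to 1.68% with DESeq2 and to 0% to 0.0144% without a plate. The interaction went from 0% to 0.0218% with median-of-ratios scaling, 1.02% with DESeq2, 0.113% without the expression filter and 0.0899% to 0.508% without a plate. The cause of these changes was not tested. The RNA content difference ran from -0.170 to -0.0675 without a group in turn. Alternatives added after seeing the data were other fibroblasts sharing no row or column and correlations with the number of detected genes taken out. No paired analysis was possible because the labels give no replicate numbers that could pair samples between lines, and cluster 5 was set against the other fibroblasts of its own group throughout.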
